A study of Triticum aestivum with 58 samples.

Results

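The genes of wheat chromosome 3B were compared between the single leaf library labelled Chakwal-97 and the 81 other leaf libraries of the series. The members are the 1219 genes on 3B with a median of at least 5 CPM (counts per 1000000 counts of the library) over the leaf libraries, of 5905 genes on 3B and 107891 genes with a TraesCS identifier in the files. They were chosen by their level in leaf, and the library was chosen by its low 3B counts. Its values are therefore given as a description, with no test. Another 3 genes on 3B reached the minimum but belong to the 95 root architecture genes listed by the study and were left out.

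The study sequenced seedling leaf and root of spring wheat cultivars, grown in trays of peat moss and collected 2 weeks after germination. It describes no treatment of these seedlings. The files hold 82 leaf libraries of 30 cultivars and 81 root libraries of 28 cultivars. Chakwal-97 has 1 leaf library, numbered replicate 2, and 3 root libraries. The comparison group in leaf is every other cultivar, with 1 to 3 libraries each.

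Bread wheat carries the A, B and D sub-genomes, so that most genes have related copies, called homoeologues, on the chromosomes of the same group. Chromosomes 3A, 3B and 3D form group 3. Because homoeologues overlap in function, wheat plants survive the loss of a whole chromosome, and lines that lack single chromosomes have long been used to place genes. The files do not pair identifiers with gene names, functions or homoeologues, so genes are given by identifier, which holds the chromosome and the order of the gene along it.

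The library labelled Chakwal-97 leaf held 9840329 counts, within the range of all leaf libraries (8111979 to 10335230, median 9249402). It was leaf tissue by its expression. Genes of root type (2860 genes) summed to 2188 CPM in it, against 364 to 5725 CPM in the other leaf libraries and 68894 to 119559 CPM in the root libraries. Its cultivar label was not borne out. Among 210 genes outside 3B and 6B whose expression is either on or off by library, it shared 100% of the states with leaf replicate 2 of C-518 and with the 3 root libraries of Gabo. It shared at most 72.2% with any other library, and 64.8% to 65.3% with the 3 root libraries of Chakwal-97. The labels of the matching libraries were not borne out in leaf either, since the same states were shared to 67.3% with C-518 leaf replicate 1 and to 63.1% with Gabo leaf replicate 1. C-518 leaf replicate 2 is therefore given beside the results as the other leaf library with these on and off states, and no direction is drawn from the cultivar name.

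Expression of nearly every 3B gene was close to absent in the library labelled Chakwal-97 leaf. All 3B genes together had 13176 counts there, against 379327 to 524182 counts in the other leaf libraries (median 459434). This was 0.134% of all counts in the library, against 4.27% to 5.57% in the others. The members summed to 1343 CPM after TMM scaling, against 28208 to 81078 CPM in the others and 49763 CPM in C-518 leaf replicate 2. No other leaf library overlapped this one. RNA counts do not measure DNA, so whether the chromosome itself was missing was not tested. In bulk tissue, fewer cells with the transcripts and less RNA per cell cannot be told apart.

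The median log2 ratio of the members was -5.83 (0.1 CPM added to both values). A member was counted as lower when it was at least 2-fold below the median and below each of the 81 other libraries. This held for 1118 members (91.7%), against 1.23% of the genes outside 3B and 5.81% of all 24092 genes at the same minimum. No member was counted as higher, against 0.341% of the genes outside 3B and 0.324% of all genes. The other 101 members were not below every library, and 69 of them had no count in at least 1 other leaf library. Of these 101, 83 were still under 10% of the median level.

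**Figure D1:**
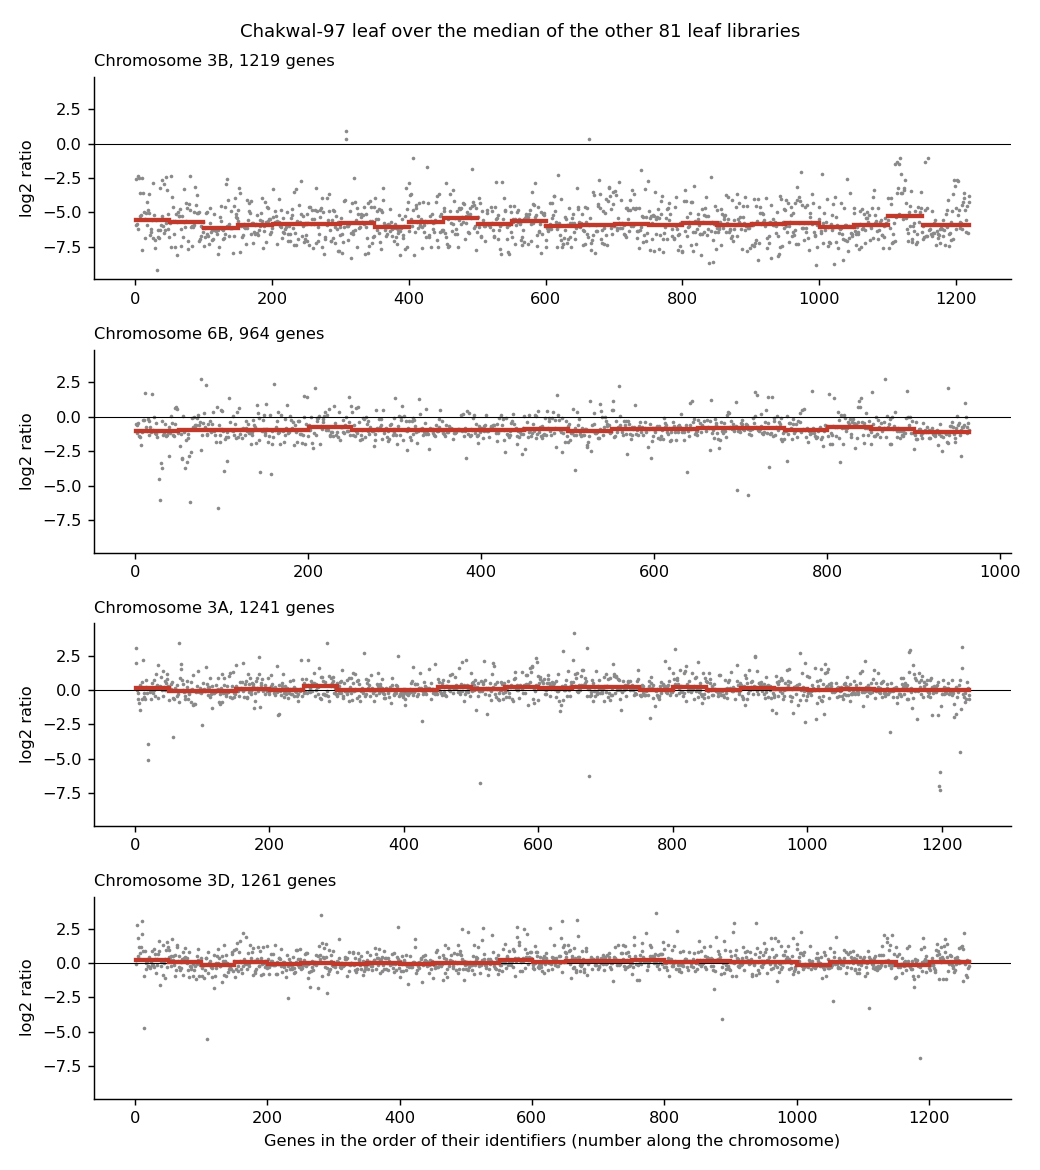
Log2 ratio of the library labelled Chakwal-97 leaf over the median of the 81 other leaf libraries (y axis), for genes in order along chromosomes 3B, 6B, 3A and 3D (x axis). Points are genes and red bars are medians of windows of about 50 genes, which lie between -6.15 and -5.27 on 3B, between -1.08 and -0.72 on 6B, and near 0 on 3A and 3D.

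The low level ran along the whole chromosome. In 24 windows of about 50 neighbouring members, the median log2 ratio lay between -6.15 and -5.27, and the median share of the usual level that was kept lay between 0.703% and 1.82%. The windows with most members keeping 10% or more were at the ends, with 9 such members in the first window, 7 in the 23rd and 6 in the 24th. In the windows between, the number was 0 to 3. C-518 leaf replicate 2 had window medians between -0.30 and 0.12 on 3B. Its lowest was the first window, where 15 of 50 members were at least 2-fold lower than the median. In the last window 14 of 69 members were that low in C-518 leaf replicate 2, although the window median was 0.09.

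Residual counts per member were few. The median level of the other libraries would give a member of this library a median of 115 counts, and at least 41.4. The library held 0 counts for 344 members, 1 to 3 counts for 565, 4 to 9 counts for 184 and 10 or more for 126. The median residual was 1.02% of the usual level, with quartiles of 0% and 2.22%. With the limit for a count of 0 set at 3 counts, such a count corresponds for the 344 members to at most 0.576% to 6.96% of the usual level (median 3.91%). This limit is narrower than the two-sided 95% Poisson intervals given for single genes, and both cover counting error only.

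The residual share was also taken by level. The summed counts of all members were 11866, where 365713 were usual, or 3.24%. A group of 3 members held 4524 of these counts, and without them the share was 2.03%. In 5 bins of 243 or 244 members ordered by level, the summed share was 3.38%, 2.08%, 2.28%, 2.46% and 3.56% from the lowest bin to the highest. Without those 3 members, which were picked by their residual, it was 2.24% in the lowest bin and 1.91% in the highest. The median share was 1.58% in the lowest bin and 0.867% in the highest. At low level such a median rests on very few counts per member, so no trend with level is drawn from it. Members without any count made up 121 of 244 in the lowest bin and 7 of 244 in the highest.

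**Figure D2:**
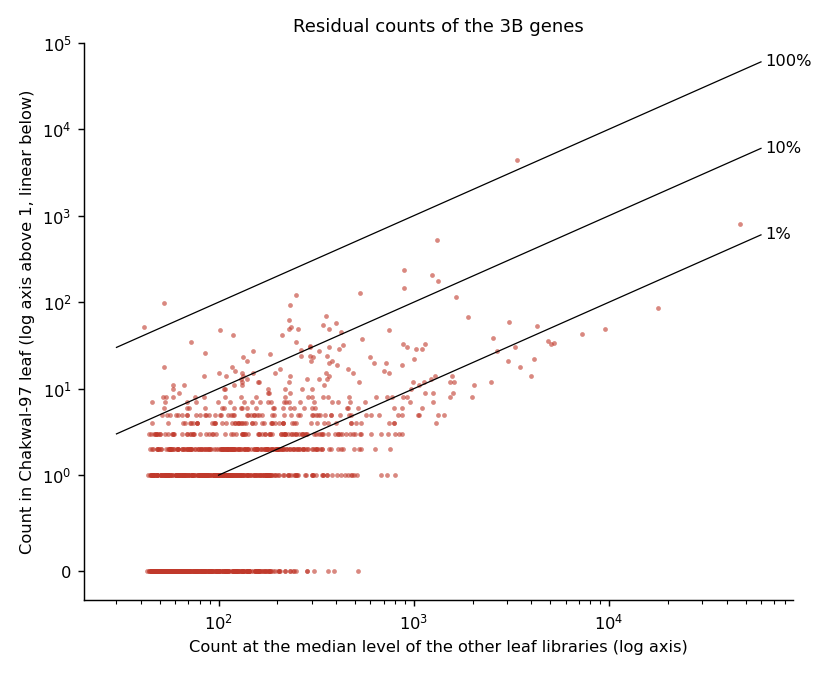
Count of each 3B member in the library labelled Chakwal-97 leaf (y axis) against the count that the median level of the other leaf libraries would give there (x axis, log scale). The y axis is logarithmic above 1 and linear below, and the lines mark 100%, 10% and 1% of the usual level. Most members lie below the 10% line and 3 lie above the 100% line.

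The most highly expressed members kept few counts as well. TraesCS3B02G259300, the member with the highest level, had 805 counts (95% Poisson interval 750 to 863), which is 91.1 CPM. The other leaf libraries had 182 to 24583 CPM (median 5293), and C-518 leaf replicate 2 had 7527 CPM. It kept 1.72% of the median level and lay below every other library. TraesCS3B02G061700 had 86 counts (interval 68.8 to 106), or 9.73 CPM, against 283 to 5311 CPM in the others (median 2024). It kept 0.481%, less than the median member, and also lay below every other library.

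The 5 CPM minimum was applied to the median of CPM without TMM scaling over all 82 leaf libraries, so the scaled medians of the other libraries given here differ from it. The members just above it, TraesCS3B02G200600 and TraesCS3B02G420600, had 0 counts each (5.0003 and 5.011 CPM by the rule), against scaled medians of 5.06 and 5.18 CPM in the other leaf libraries. The genes just below it, TraesCS3B02G408500 and TraesCS3B02G451800, had 1 and 0 counts (4.998 and 4.991 CPM by the rule), against scaled medians of 5.18 and 5.36 CPM.

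Only 3 members reached their usual level, and the next highest kept 48.6%. TraesCS3B02G186100 had 4373 counts, or 495 CPM, against 34.0 to 2155 CPM in the other leaf libraries (median 384) and 416 CPM in C-518 leaf replicate 2. This is 129% of the median (interval 125% to 133%). TraesCS3B02G187700 had 99 counts, or 11.2 CPM, against 0.685 to 114 CPM (median 5.94). TraesCS3B02G314300 had 52 counts, or 5.88 CPM, against 0 to 106 CPM (median 4.69). All 3 lay within the range of the other libraries. C-518 leaf replicate 2 had 16 and 6 counts of the last 2 genes.

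A further 50 members kept between 10% and 50%, 83 kept between 5% and 10%, and 1083 kept under 5%. The 53 members that kept 10% or more were more frequent in the windows at the chromosome ends, as given above. In length and level they were close to the 1166 others. Their median length was 1803 bp, against 1795 bp, and their median level over the other leaf libraries was 15.1 CPM, against 12.95 CPM. In root, their median level was 15.7 CPM, against 15.4 CPM. Among them, 18.9% had another leaf library under 10% of the median, against 18.6% of the others. In the 81 other leaf libraries, the number of members under 10% of the median was 0 to 59 (median 11), where the library labelled Chakwal-97 leaf had 1166. The part of reads that belong to related genes in these residual counts was not tested.

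Against C-518 leaf replicate 2 alone, a comparison chosen after the data were seen, the members had a median log2 ratio of -5.76. Of the members, 98.7% were at least 2-fold lower, against 7.60% of the genes outside 3B. The 3B level of C-518 leaf replicate 2 itself was usual, with 5.36% of its counts on 3B.

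The genes of 3A and 3D were examined for compensation, that is, for a rise where 3B transcripts were lacking. Neither chromosome stood out. Chromosome levels are given as the median log2 ratio of a chromosome less the median over the 17 chromosomes outside group 3 and 6B. The value was -0.005 for 3A (1241 genes), against -0.079 to 0.152 in the other leaf libraries (SD 0.027). It was -0.007 for 3D (1261 genes), against -0.063 to 0.063 (SD 0.022). Both values were smaller than 1 SD of the other libraries. For 3B the same measure was -5.90, against -0.090 to 0.032.

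**Figure D3:**
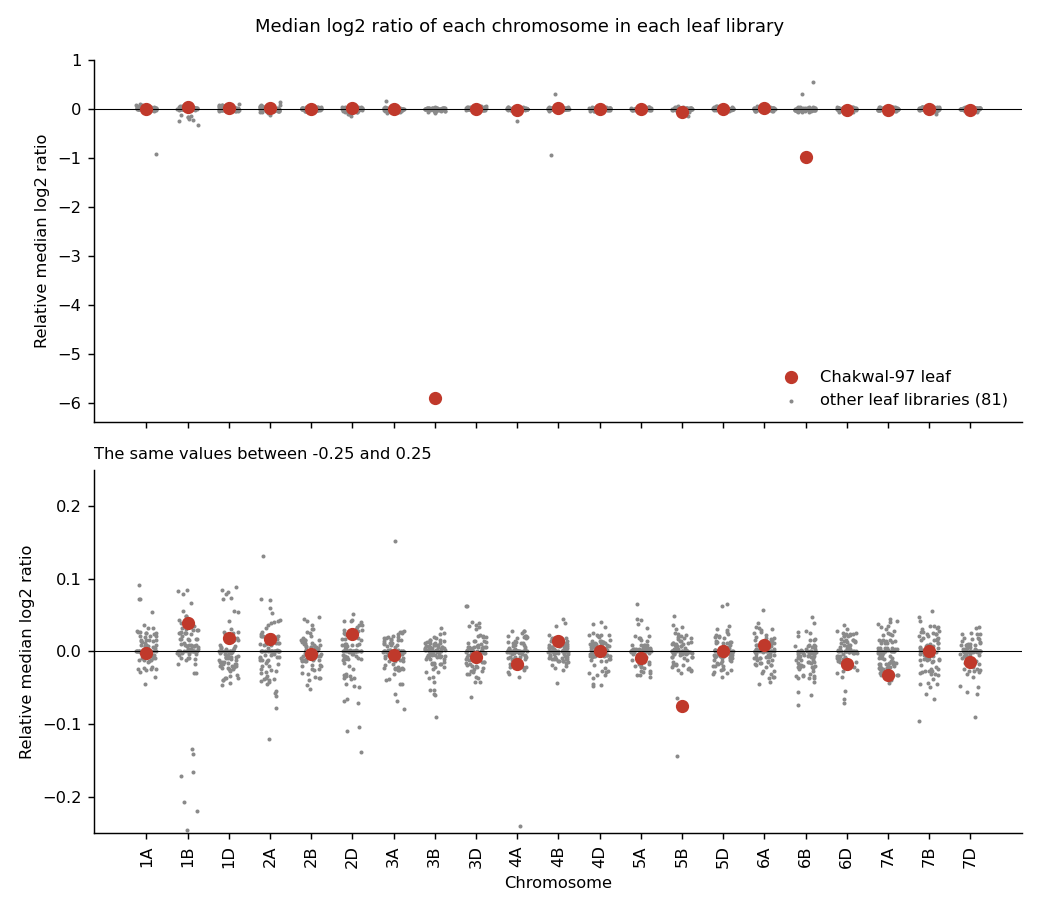
Relative median log2 ratio (y axis) of each of the 21 chromosomes (x axis) in the library labelled Chakwal-97 leaf (red) and in the 81 other leaf libraries (grey). The lower panel repeats the values between -0.25 and 0.25 and leaves out those beyond. In red, 3B lies at -5.90 and 6B at -0.99, while 3A and 3D lie among the other libraries.

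Single genes gave the same result. A rise that made up for 3B in equal parts on 3A and 3D would be 1.5-fold, a log2 ratio of 0.58. At least 1.5-fold higher than the median were 20.9% of the 3A genes and 20.5% of the 3D genes, against 21.1% of the genes on the 17 other chromosomes (18.6% to 24.1% by chromosome). In 5 bins of the 3A genes by level, the median log2 ratio lay between 0.02 and 0.12, against 0.01 to 0.15 for genes of similar level on the 17 chromosomes. For 3D the values were -0.01 to 0.11, against 0.01 to 0.16. These raw ratios include a shift of 0.07, the median over the 17 chromosomes with this scaling.

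The counts within group 3 need no scaling between libraries. In the library labelled Chakwal-97 leaf, 3A held 48.9% of the group 3 counts, 3B 1.39% and 3D 49.7%. In the other leaf libraries the medians were 32.3%, 35.4% and 32.3%. The ratio of 3A to 3D counts was 0.985, against 0.912 to 1.11 in the others (median 0.996). Thus 3A and 3D kept their balance with each other. Group 3 as a whole made up 9.65% of all counts, against 12.1% to 19.2% in the others (median 14.1%).

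**Figure D4:**
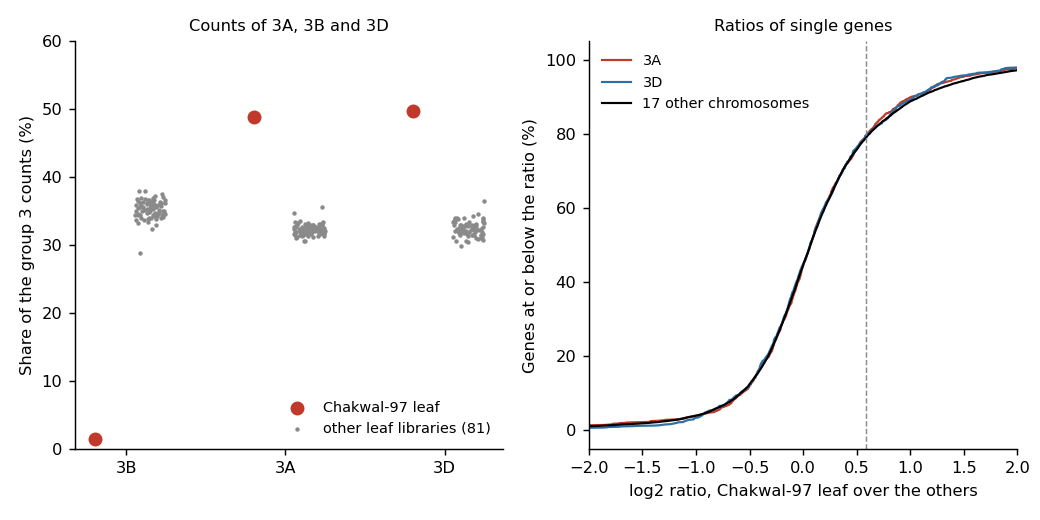
Left, share of the group 3 counts on 3B, 3A and 3D (y axis, %) in the library labelled Chakwal-97 leaf (red) and in the 81 other leaf libraries (grey). Right, cumulative share of genes (y axis, %) by log2 ratio (x axis) for 3A, 3D and the 17 other chromosomes, with a dashed line at 1.5-fold, where the 3 curves lie at about the same height.

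Few genes of 3A and 3D left the range of the other libraries. On each of the 2 chromosomes, 3 genes were at least 2-fold higher and above every other leaf library, and 5 were at least 2-fold lower and below every other. On 3A these are 0.242% and 0.403% of the genes, and on 3D 0.238% and 0.397%. The genes of the 17 other chromosomes gave 0.375% and 0.318%. The highest ratio on 3A was that of TraesCS3A02G272000, with 33.5 CPM, against 2.56 to 31.9 CPM in the others (median 7.44). On 3D it was TraesCS3D02G148700, with 94.2 CPM, against 0 to 86.4 CPM (median 8.06). Both lay barely above the highest other library. In C-518 leaf replicate 2 none of these 6 higher genes was 2-fold above the median, while 3 of the 10 lower genes were at least 2-fold below it. The share of all genes that far from the median in that library was not computed. The lowest ratios were those of TraesCS3A02G017100, with 2 counts or 0.226 CPM, against 0.514 to 26.4 CPM (median 10.9), and of TraesCS3D02G074400, with 4.19 CPM, against 4.25 to 1445 CPM (median 193). Both were low in C-518 leaf replicate 2 as well, with 0.514 and 10.7 CPM.

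Chromosome 6B was the other chromosome that shifted. Its relative median log2 ratio was -0.99, against -0.074 to 0.554 in the other leaf libraries, so no other library came near it on 6B. Drops close to this size occurred on other chromosomes, since the lowest values of the other leaf libraries were -0.922 on 1A and -0.940 on 4B. The median 6B gene was at 52.4% of its usual level (quartiles 40.5% and 73.9%, 964 genes), and 664 of the genes (68.9%) lay between 25% and 75%. The 19 windows of about 50 genes had medians between -1.08 and -0.72, so the reduction ran along the whole chromosome. By the rule used for 3B, 197 genes (20.4%) were lower and 0 were higher. C-518 leaf replicate 2 did not share the shift, with a relative median of -0.012 on 6B. Of these 197 genes, 11 (5.58%) were at least 2-fold lower there. The rule had picked only genes that were higher in C-518 leaf replicate 2 than in the library labelled Chakwal-97 leaf. Of all counts, 6B held 1.98% in the library labelled Chakwal-97 leaf, 3.18% to 5.53% in the others and 3.56% in C-518 leaf replicate 2. Against that library alone, 6B had a relative median of -0.95.

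The homoeologous chromosomes of 6B stayed level as well. Their relative medians were 0.008 for 6A and -0.018 for 6D, against -0.045 to 0.058 and -0.071 to 0.037 in the other libraries. The 17 chromosomes outside group 3 and 6B lay between -0.075 and 0.040. The lowest of these was 5B, where 1 other leaf library was lower.

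Outside 3B, 281 genes were lower and 78 were higher. With the leaf libraries of the study's own cultivars as the only comparison, 399 were lower and 281 higher. Both counts thus depended on the libraries compared. The lower genes were 197 on 6B, 10 on 3A and 3D, 61 on the 17 other chromosomes and 13 of the 200 tested genes without a chromosome (prefix TraesCSU). Of the higher genes, 72 lay on the 17 chromosomes, with 2 to 10 on each, so lower genes were not in excess there.

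Of the 61 lower genes on the 17 chromosomes, 24 (39.3%) were also at least 2-fold lower in C-518 leaf replicate 2. Of the 72 higher genes, 20 (27.8%) were at least 2-fold higher in it. These genes were picked by their values in the leaf libraries. The share of all genes that far from the median in C-518 leaf replicate 2 was not computed, so these shares have no baseline. A run on 5B between TraesCS5B02G355100 and TraesCS5B02G366200, noticed in the data, held 11 of the 16 lower 5B genes. The 30 genes of this run had a median log2 ratio of -1.38, and C-518 leaf replicate 2 had -1.22 there. That run thus belonged to both libraries.

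The highest ratios outside group 3 were those of genes of chromosomes 1B and 5B. TraesCS1B02G170100 had 5862 counts, or 663 CPM, against 0 to 445 CPM in the other leaf libraries (median 6.94) and 6.89 CPM in C-518 leaf replicate 2. TraesCS5B02G265500 had 4171 counts, or 472 CPM, against 0 to 223 CPM (median 5.64) and 2.06 CPM in C-518 leaf replicate 2. Both exceeded every other leaf library, although some of these reached levels far above the median too.

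The lowest ratios outside 3B were those of genes without a chromosome. TraesCSU02G053500 had 0 counts, against 2.95 to 88.04 CPM in the other leaf libraries (median 20.9), a level that would give 184 counts. TraesCSU02G049400 had 25 counts, or 2.83 CPM, against 99.1 to 2659 CPM (median 557). All 13 lower genes of this class kept at most 8.78% of the median. The stretch between TraesCSU02G047400 and TraesCSU02G054300 was noticed in the data, and its ends were set at lower genes. Of its 13 tested genes, 12 were lower.

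Another library lacked transcripts of part of 3B. Root replicate 2 of Gabo shares the on and off states of the library labelled Chakwal-97 leaf, and the rule did not use it. Of 1637 genes on 3B with a root median of at least 5 CPM, the first 559, up to TraesCS3B02G230600, stood at -6.60 as the median log2 ratio over root libraries of other cultivars, and 555 of them were at least 4-fold lower. From TraesCS3B02G230700 on, the remaining 1078 genes had a median of -0.003 and 49 were at least 4-fold lower. Outside 3B, 2.81% of the genes were at least 4-fold lower in this library. Over the first 559 genes, Gabo root replicates 1 and 3 had medians of -0.05 and -0.04. The break was placed after the values were seen, where it sorts most genes, so no test is given. Chromosome 4B differed among the Gabo root libraries too, with relative medians of 0.575, 0.248 and 0.014 in replicates 1, 2 and 3. In the root libraries of cultivars other than Gabo and Chakwal-97, 4B lay between -0.337 and 0.034.

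**Figure D5:**
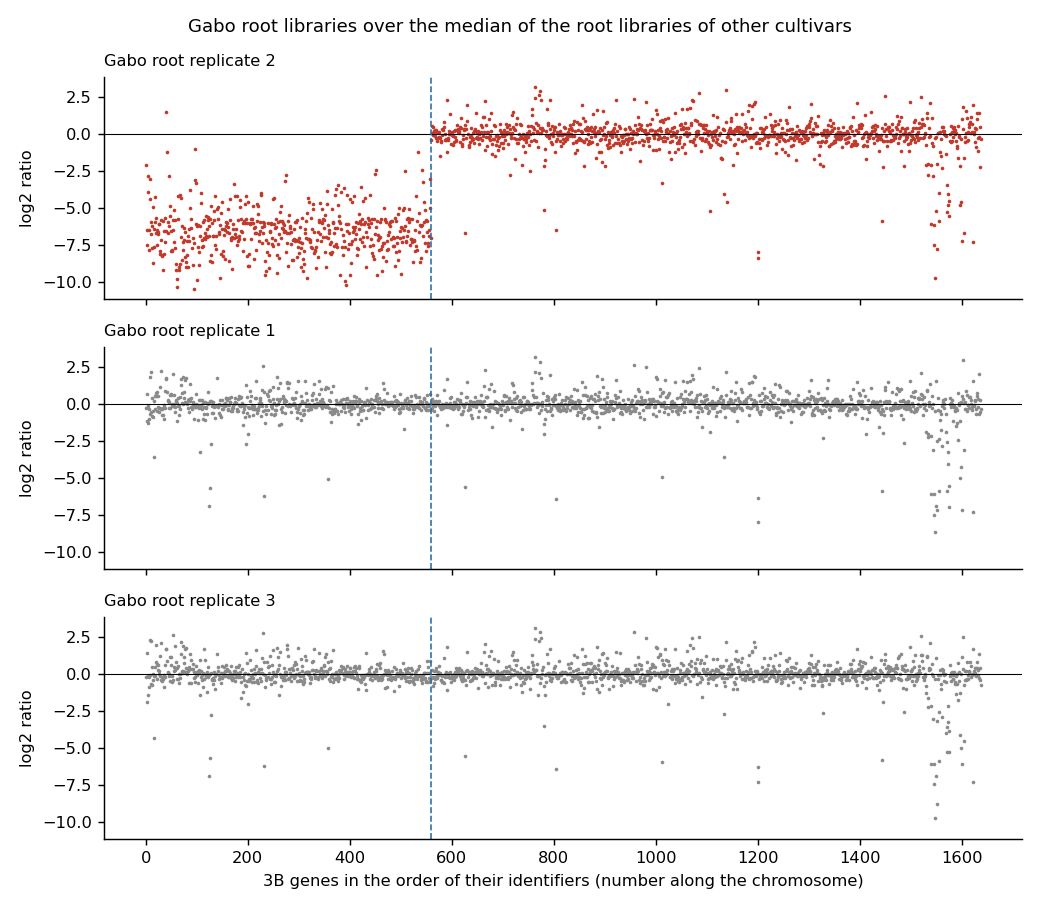
Log2 ratio of Gabo root replicates 2, 1 and 3 over the median of the root libraries of other cultivars (y axis) for 1637 genes in order along 3B (x axis). The dashed line marks the break after gene 559. Replicate 2 lies at a median of -6.60 before it and near 0 after it, and replicates 1 and 3 lie near 0 on both sides.

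The residual counts were lower still in that root library, with 0 counts for 343 of the 559 genes. A set of 322 members lay in the low stretch and reached the minimum in root as well. Their median residual was 1.04% in the library labelled Chakwal-97 leaf and 0% in Gabo root replicate 2. At least 10% was kept by 12 of them in that leaf library and by 16 in that root library. These lists, of 12 and 16 among 322 genes, shared 6 genes, which is 50% of the first and 37.5% of the second. The size of this overlap was not tested. The relative medians of 3A and 3D in Gabo root replicate 2 were 0.010 and 0.016, within the range of the root libraries of cultivars other than Gabo and Chakwal-97 (-0.036 to 0.033 and -0.090 to 0.022). As wholes, the homoeologous chromosomes did not stand out. These medians cover all of 3A and 3D, whereas 3B was low over 559 of 1637 genes only. They could thus miss a rise limited to the matching stretch, which was not tested.

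The genes without a chromosome were low only in part there. Of the 13 that were lower in the library labelled Chakwal-97 leaf, 9 had a root median of at least 2 CPM. In Gabo root replicate 2, 4 of the 9 were under 10% of that median, and 5 kept 10% or more. The 4 genes were not under 10% in Gabo root replicates 1 and 3. The share of all genes under this limit in Gabo root replicate 2 was not computed. TraesCSU02G049400 had 0 CPM in Gabo root replicate 2, against 18.6 and 30.9 CPM in Gabo root replicates 1 and 3.

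Chakwal-97 root offered values that the choice of members did not use, although its on and off states were not those of the leaf library of the same name. Its 3B genes were not reduced. The relative median of 3B was 0.015, 0.017 and 0.021 in replicates 1, 2 and 3. As a cultivar mean, 3B was 0.025 above the mean of the other cultivars (SD 0.031, exact permutation test over cultivars, two-sided, 28 cultivars, p = 0.143). The lowest of the others was -0.147, that of Gabo. For 3A the difference was -0.0002 (p = 0.929) and for 3D 0.012 (p = 0.214), by the same exact permutation test. The smallest p that 28 cultivars allow is 0.0357.

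Single 3B members were tested in root with edgeR's quasi-likelihood test, as Chakwal-97 against the mean of the other cultivars. Of 1133 members tested, 72 (6.35%) were higher and 60 (5.30%) lower at an adjusted p under 0.1 (Benjamini-Hochberg over 64841 genes). Over all genes the shares were 8.18% higher and 5.22% lower, so the members' shares lay near those of all genes. The other cultivars include Gabo root replicate 2, which was low on part of 3B. Without that library, an alternative chosen after the data were seen, 94 members (8.30%) were higher and 82 (7.24%) lower, against 8.06% and 5.66% of all genes. Leaving out 1 Chakwal-97 root replicate at a time left 32 to 42 members higher (2.82% to 3.71%, against 3.90% to 5.03% of all genes) and 31 to 36 lower (2.74% to 3.18%, against 2.03% to 3.02%). Most calls were lost when the other root libraries formed 1 group without cultivar terms, with 7 members higher and 7 lower (0.621% each, against 0.415% and 0.374% of all genes).

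Of the higher members, those with the smallest p were the following. TraesCS3B02G448000 had 43.8, 41.2 and 52.2 CPM in the Chakwal-97 root libraries, against 7.55 to 44.4 CPM (median 20.3) in the 78 other root libraries. Its log2 fold change was 1.27 with a standard error of 0.19 and an adjusted p of 4.3e-06 (edgeR). TraesCS3B02G270200 had 62.9, 62.7 and 65.8 CPM, against 22.6 to 66.0 CPM (median 39.7), with a log2 fold change of 0.71. All 3 replicates of both genes lay above the median of the others, and only replicate 3 of TraesCS3B02G448000 exceeded their highest value.

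In the other direction, TraesCS3B02G541100 had 2.28, 1.31 and 1.63 CPM in the Chakwal-97 root libraries, against 1.23 to 16.2 CPM (median 9.62) in the others. Its log2 fold change was -2.33 with a standard error of 0.35 and an adjusted p of 5.5e-06 (edgeR). TraesCS3B02G391300 had 3.04, 4.26 and 5.21 CPM, against 2.16 to 66.7 CPM (median 36.4), with a log2 fold change of -2.90. In the library labelled Chakwal-97 leaf these 4 members had 3, 6, 15 and 1 counts.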

How the data were processed

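The authors extracted total RNA from seedling leaf and root and sequenced oligo(dT)-selected RNA on BGISEQ-500 as 50-bp single-end reads, which they mapped to the bread wheat reference genome with HISAT2 (Bowtie is named as well). They counted reads per gene with featureCounts. The deposited counts are whole numbers without normalization, 1 column per library, with the gene length beside them. The treatment of reads with several matches and the strand setting are not given in the sources used here, so reads shared between homoeologues cannot be told apart. The deposited tpm files were not used. Rows of noncoding RNA (12853, holding 0.0179% of the counts) entered the library totals only. Seeds were sown in triplicate, but which libraries came from separate plants is not given. The p-values of the edgeR fit with cultivar terms thus measure the spread between libraries of a cultivar, which may be technical. Those of the exact permutation test measure the spread between cultivar means.

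Counts were scaled to CPM with TMM factors (edgeR 4.0.16, R 4.3.3) per tissue, and log2 ratios were taken with 0.1 CPM added. On or off meant above 2 or below 0.15 CPM. Root was fitted with 1 coefficient per cultivar, filterByExpr and edgeR's quasi-likelihood test, at the study's threshold of 0.1 with Benjamini-Hochberg adjustment. The root fit and the leaf comparison were also run on simulated counts with 200 changed genes. The simulated root cultivars did not differ apart from these genes, and the simulated leaf counts held counting error only. These runs thus cannot show how the methods perform with the spread of the real libraries. The replicate number was not a term in the model: deviations of Chakwal-97 root libraries correlated with those of the same number elsewhere by 0.053, -0.041 and 0.13. Alternatives were DESeq2 1.42.0, other scalings, minimums, offsets and folds, and the study's own cultivars only. Without a reference that annotates these identifiers, no gene lists, homoeologue pairs or sequences were used, and the rule for named genes (highest level, highest residual, largest change past the threshold, smallest p in root) was limited to the first 2 in each direction, with 3 for the residual. The members, lists and comparisons were chosen with earlier results of these data known. Leaf values were computed in Python 3.11.15 with pandas 2.3.3 and numpy 2.4.6, exact tests with scipy 1.17.1, and plots with matplotlib 3.10.9.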

Additional observations from a re-analysis of the deposited data

Results flagged for a closer look

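The leaf library labelled Chakwal-97 was low on 3B and 6B, whereas the 3 Chakwal-97 root libraries stayed within the range of the other root libraries. The relative median log2 ratio of 3B was -5.90 in leaf, against 0.015 to 0.021 in root. For 6B it was -0.99 in leaf, against 0.002 to 0.018 in root. The difference between the tissues was not tested, since leaf has 1 library, and its on and off states were not those of the root libraries of that name.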

How the results depend on the processing

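Of 106 alternative values of 12 results, 76 were rated the same, 28 moved and 2 changed sign. Counts of members in root were rated by their fold difference from the main count, not by a spread. In leaf, 399 lower genes outside 3B, against 281 in the main comparison, were rated the same. With library totals only, the median log2 ratio of the 3B members was -5.89 and 45 genes outside 3B were higher. With a minimum of 1 CPM it was -4.99, with 1772 members lower, and 522 genes lower and 209 higher outside 3B. A minimum of 10 CPM gave -6.05, 718, 151 and 38. Offsets of 0.5 and 1 CPM gave -4.24 and -3.48 for 3B, and the offset of 1 CPM gave -0.91 for 6B. Outside 3B, a 4-fold limit left 60 genes lower and 38 higher, and the study's own cultivars as the comparison gave 399 lower and 281 higher. Against C-518 leaf replicate 2 alone, the 3B median was -5.76, and 1739 genes were lower and 3025 higher outside 3B, where 1 library sets the range. The minimums and the number of libraries change how many genes are tested or how wide the range is, and the cause of the other shifts was not tested.

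In root, Chakwal-97 against all other libraries as 2 groups gave 7 members higher and 7 lower (0.621% each, against 0.415% and 0.374% of all genes). The study's own cultivars gave 114 higher and 80 lower (10.1% and 7.06%, against 9.35% and 5.62% of all genes). Without Gabo root replicate 2, 94 were higher and 82 lower. Leaving out 1 replicate gave 32 to 42 higher and 31 to 36 lower. The 3A difference was 0.0029 with the study's own cultivars and -0.0020 to 0.0031 without 1 replicate. The replicate numbers did not pair the samples throughout. Chakwal-97 root replicates 1 and 3 correlated best with their own number, but weakly (0.053 and 0.13). Replicate 2 correlated best with number 1 (0.093, against -0.041 with its own number). With the replicate number as a block, 72 members were higher and 59 lower.

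A single leaf library without replicates, counts under 10 for most members and unknown handling of reads shared between homoeologues limit the precision of the residual values.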
